A study of Mus musculus with 24 samples.

Results

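Connexins are the subunits of vertebrate gap junctions, and 9 connexin genes were followed here in the spinal nerve roots of the mouse from birth to 5 weeks. They were the genes of the myelin connexins Cx32 (Gjb1) and Cx29 (Gjc3), of the connexins known from astrocytes and leptomeninges, Cx43 (Gja1), Cx26 (Gjb2) and Cx30 (Gjb6), of the vascular connexins Cx37 (Gja4), Cx40 (Gja5) and Cx45 (Gjc1), and of the neuronal connexin Cx36 (Gjd2). They were chosen by gene name, 9 of 37074 gene names on the array, and were represented by 20 of its 56605 gene probes. Each gene was read through its probe with the highest mean over all arrays, and its other probes served as a check. RNA came from C57BL/6 mice of both sexes without any treatment, from the ventral root (EN, efferent nerve fibres) and the dorsal root (AN, afferent nerve fibres) at segments L4–L6. The day of birth (P0) and the ages of 1, 3 and 5 weeks (1 W, 3 W, 5 W) gave 8 groups, with 3 arrays per group and 24 in all, each hybridized with 1 Cyanine-3 labelled sample. The study used 9 animals per time point, pooled the fibres of a group in a tube, and described 3 independent experiments per group. No source ties an array to its animals, so the p values below measure the spread between these samples. A root contains axons, Schwann cells, fibroblasts, vessels and meningeal cells together, and whether a lower signal came from fewer cells of a type or from less RNA per cell cannot be told apart.

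A gap junction forms when a hexamer of connexins in one membrane, called a connexon, docks with a connexon of the neighbouring cell and lets ions and small metabolites pass. In myelinating Schwann cells, Cx32 joins successive wraps of the same cell at the incisures and paranodes, and mutations of the human gene cause X-linked Charcot-Marie-Tooth neuropathy. Cx29 lies in the innermost Schwann cell membrane facing the axon, where it is thought to form hemichannels rather than junctions. Cx37 and Cx40 couple endothelial cells, Cx45 occurs in vascular smooth muscle, endothelium and some neurons, and Cx36 forms electrical synapses between neurons.

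Signals are log2 values of the background-subtracted spot intensity after quantile normalization over the 24 arrays, and 1 unit is a doubling. A probe reads its own transcript with its own affinity, so levels were compared between groups and not between genes. One limma model covered the 8 groups, and a difference was called when its Benjamini-Hochberg adjusted p over all 36398 tested probes was below 0.05 and its fold above 2. All p values are adjusted values from this fit unless stated otherwise, and means are given ± SD with n = 3 arrays. Of the connexin genes, 8 were well above background on 24 of 24 arrays through their main probe. Gjd2 was above background on 10 arrays and passed the filter on dim probes only through EN at P0 and AN at 1 W.

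The Schwann cell marker Prx, which encodes the peripheral myelin protein periaxin, was bright in every group (means of 16.98 to 17.89). A list of 6 sensory neuron genes, among them Avil, Scn10a and Calca, had a like signal in EN and AN at P0. Its mean log2 signal was 11.35 to 12.07 on the EN arrays and 11.36 to 13.08 on the AN arrays, although ventral roots should hold few sensory axons. From 1 W to 5 W it was 6.43 to 8.47 on the EN arrays. The purity of the roots at P0 is therefore in doubt. This concerns AN against EN at P0, every EN change from P0 and every change of the root difference since P0. No P0 EN array was low in these genes, so no value could be given without them, and the part of sensory neuron tissue in these comparisons was not tested. AN replicate 3 at 3 W stood apart with a mean of 13.94, against 8.99 and 8.73 on the other AN arrays of that age. Of 5 motor neuron genes, Mnx1 was not above background on any array and Chat was above it on all. Of the 4 tested, 1 was called between the roots, higher in AN at 1 W (2.80% of all tested probes). This was Isl1, with means of 8.66 in AN and 3.73 in EN, where 1 of 3 arrays was above background. The median log2 difference of the 4 at this age was 0.28, and none of them was called lower in AN at any age. The mean of the 5, Isl1 included, was 5.74 to 6.17 on the AN arrays and 4.63 to 5.55 on the EN arrays at 1 W. The arrays lay on 4 slides, AN and EN of a replicate number always shared one, and 3 W never shared a slide with P0.

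Between the roots, few connexin differences passed the test. At P0, 1 of 9 genes was called (0.327% of all tested probes), namely Gjb1, which was lower in AN. At 1 W, 2 of 9 were called (2.80% of all tested probes), Gjb2 and Gjb6, both lower in AN. None was called at 3 W (3.13% of all tested probes), where limma gave 4 genes an unadjusted p below 0.05, or at 5 W (3.34% of all tested probes), where it gave 2. The intervals of the root differences remained wide, and for Gja1 at 5 W the 95% interval of AN minus EN ran from -0.14 to 1.22.

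**Figure D1:**
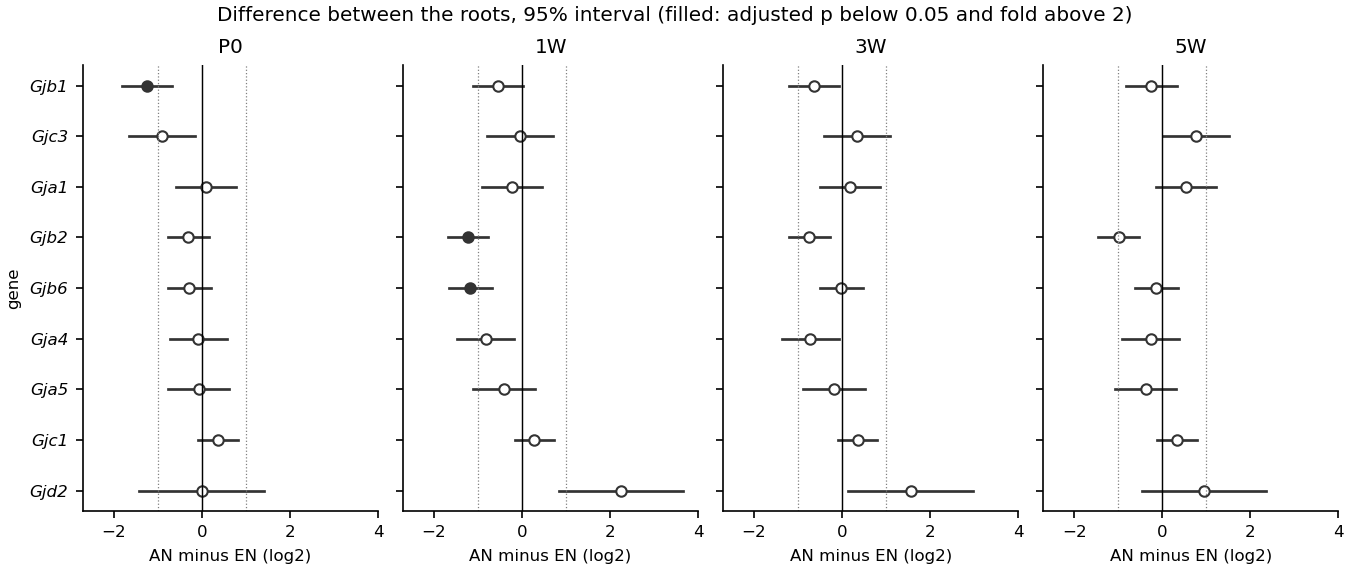
Difference of each connexin gene between the roots (x axis, log2 of AN minus EN, so that values left of 0 are lower in AN) at the 4 ages, with 3 arrays per root and age. Points are limma estimates, bars 95% intervals, dotted lines a fold of 2, and filled points passed both thresholds, which are Gjb1 at P0 and Gjb2 and Gjb6 at 1 W.

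Changes during development were more frequent, in the connexins as in all probes. In EN, 3 of 9 genes were called at 1 W against P0 (12.0% of all tested probes), 4 at 3 W (30.6%) and 7 at 5 W (30.0%). In AN, 2 of 9 were called at 1 W (8.59% of all tested probes), 3 at 3 W (27.9%) and 6 at 5 W (27.9%). Gjb1 and Gja4 rose in all 6 comparisons, and Gjc1 fell in both roots at 3 W and 5 W. The counts include Gjd2 in EN at each age and in AN at 5 W, which passed the filter only through EN at P0 and AN at 1 W. All 3 comparisons of a root share its P0 arrays, and in EN these carried the sensory neuron signal described above. The median log2 difference of the 9 genes at 5 W was -0.95 in EN and -0.05 in AN, against 0.04 and 0.03 over all tested probes.

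**Figure D2:**
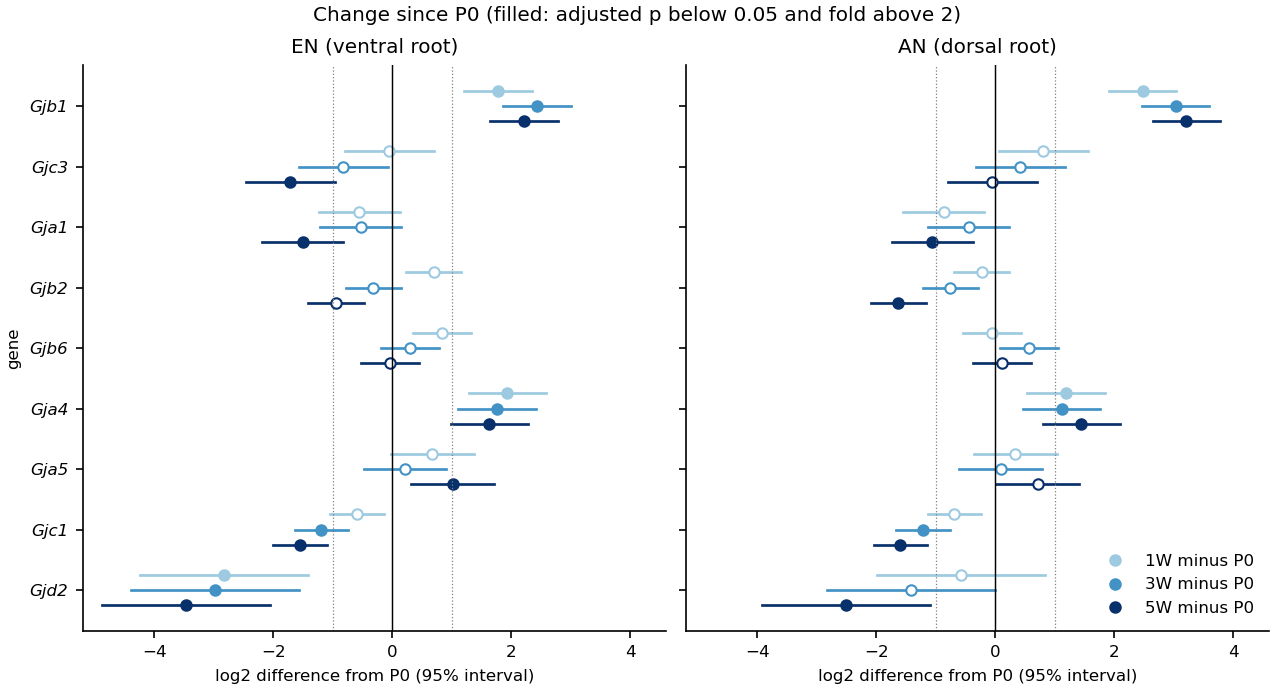
Log2 difference of each connexin gene from P0 (x axis) in EN (left) and AN (right) at 1 W, 3 W and 5 W, with 95% intervals from limma over 3 arrays per group. Filled points passed both thresholds, which leaves Gjb6 as the gene with open points at every age in both roots.

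Gjb1 showed the largest rise of the 9 genes. On the probe at chrX:98580902-98580961 (mm9, plus strand), the 3 EN arrays at P0 read 13.28, 12.70 and 12.90, and the 3 AN arrays 12.40, 10.92 and 11.82. At 1 W, EN read 14.78, 14.93 and 14.52 and AN 14.37, 14.44 and 13.77. Every array at 1 W was above every array at P0, in both roots. At 3 W, EN read 15.36, 15.42 and 15.40 and AN 15.04, 14.71 and 14.51. At 5 W, EN read 15.32, 15.12 and 15.09 and AN 15.13, 14.79 and 14.87. Most of the difference from P0 was present at 1 W, and EN at 3 W was the highest group.

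In EN, Gjb1 rose by a log2 difference of 1.78 ± 0.27 (SE) at 1 W (adjusted p = 0.000112), 2.43 at 3 W (6.78e-07) and 2.22 at 5 W (1.63e-06). The AN values were 2.48 (3.42e-06), 3.03 (4.65e-08) and 3.21 (1.39e-08), which is a 9.28-fold rise at 5 W. Within the slides that held both ages, the rise was 1.51 and 1.72 in EN and 1.97 and 2.40 in AN at 1 W, and 2.32 in EN and 3.42 in AN at 5 W. The 6 rises remained called under all alternatives that were run.

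Before the rise, Gjb1 was 2.37-fold lower in AN than in EN at P0 (log2 difference -1.24, 95% interval -1.81 to -0.68, adjusted p = 0.0379). Within replicate numbers AN was lower in 12 of 12 pairs over the 4 ages, by 0.19 to 1.78 log2 units. The later differences were not called, at -0.55 (adjusted p = 0.392), -0.64 (0.188) and -0.25 (0.664). The P0 call was lost without AN replicate 2 (-0.85) or 3 (-1.30) and without EN replicate 1 (-1.08), 2 (-1.37) or 3 (-1.27). Its log2 difference ran from -1.59 to -0.85 and its adjusted p from 0.00333 to 0.459 over 17 alternatives. The root difference at 5 W minus that at P0 was 1.00 with an adjusted p of 0.298.

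Other genes of Schwann cell myelin moved with Gjb1. Of 10 genes of the myelinating Schwann cell, 4 were called lower in AN at P0 (0.327% of all tested probes in either direction). They were Ncmap (log2 difference -1.26), Mbp (-1.25), Gldn (-1.51) and Drp2 (-1.66). The mean log2 signal of the 10 was 14.02 to 14.68 on the AN arrays and 15.13 to 15.43 on the EN arrays at P0. Against P0, 5, 5 and 4 of the 10 rose in EN at 1 W, 3 W and 5 W, and 6, 7 and 7 in AN. Of all tested probes, 12.0%, 30.6% and 30.0% were called in EN and 8.59%, 27.9% and 27.9% in AN, in either direction. Ddn (r = 0.989) and Nfasc (0.982), the nodal and paranodal adhesion molecule neurofascin, were among the tested genes with the courses most like that of Gjb1. These r values are across 24 arrays that share their groups, among 18679 genes. The oligodendrocyte genes rose as well, with 6 of 8 called in each root at 3 W, and Klk6 and Hapln2, not above background on any P0 array, reached 7.65 and 6.17 in EN at 3 W. Cx32, Mbp, Cnp and Mag are also made by oligodendrocytes. The mean signal of the 8 oligodendrocyte genes was 6.77 to 7.29 on the EN arrays at P0 and 9.24 to 9.68 at 3 W, and their part in the Gjb1 result was not tested.

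RefSeq lists 4 start sites for Gjb1, and the 250 bases before each were searched on both strands for 3 words: ACAAAG and ACAATG, core words of the SOX family to which the Schwann cell regulator Sox10 belongs, and TATAAA. Only the window of the most downstream start, at chrX:101383482-101383731 (GRCm38.p6, plus strand), held both SOX words, 4 bases apart and in opposite orientation. It is shown with the Gjc3 window at chr5:137963099-137963348 (GRCm38.p6, minus strand), which held neither, because both genes belong to the same cell and had different courses. Capitals mark the SOX words.
Gjb1: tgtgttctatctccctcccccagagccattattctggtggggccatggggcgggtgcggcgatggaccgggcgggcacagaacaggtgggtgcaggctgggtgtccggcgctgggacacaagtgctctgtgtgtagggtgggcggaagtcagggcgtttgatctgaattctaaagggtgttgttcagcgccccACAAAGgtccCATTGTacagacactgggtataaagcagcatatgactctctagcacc
Gjc3: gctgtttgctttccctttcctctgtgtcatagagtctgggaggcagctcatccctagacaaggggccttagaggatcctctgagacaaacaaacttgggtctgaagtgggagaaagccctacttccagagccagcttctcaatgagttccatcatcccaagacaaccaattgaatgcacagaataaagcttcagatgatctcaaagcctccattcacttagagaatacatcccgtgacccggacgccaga
The words are common: ACAAAG was found in 5408 and ACAATG in 3512 of 32851 windows of this length. The Gjb1 window also held TATAAA (12.4% of windows). Among the other connexin windows, Gja5 and the first Gjb1 window held 1 ACAAAG each.

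Gjc3 did not share the course of Gjb1. On its brighter probe, at chr5:138395037-138395096 (mm9, minus strand), EN read 12.70, 13.51 and 14.02 at P0 and AN 12.09, 12.30 and 13.14. At 5 W, EN read 11.60, 11.80 and 11.70 and AN 11.99, 12.72 and 12.68. The EN arrays at 5 W lay below all others of the gene, while the AN arrays at 5 W overlapped those at P0. Replicate 1 was the lowest and replicate 3 the highest in both roots at P0.

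In EN, Gjc3 fell by a log2 difference of 1.71 at 5 W (a 3.28-fold fall, adjusted p = 0.000535), and within the shared slide the difference was -1.97. The earlier EN values, -0.05 at 1 W and -0.82 at 3 W (adjusted p = 0.0604), were not called. In AN no age was called, with 0.81 at 1 W (adjusted p = 0.117), 0.42 at 3 W and -0.05 at 5 W (95% interval -0.80 to 0.71).

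The mean root difference of Gjc3 therefore ran from -0.90 at P0, lower in AN, to 0.77 at 5 W, higher in AN, and neither was called in the main fit. Within replicate numbers 1, 2 and 3, AN minus EN was -0.61, -1.21 and -0.88 at P0 and 0.39, 0.92 and 0.98 at 5 W. The 3 pairs at 1 W lay near 0 (-0.02, 0.09 and -0.18), and those at 3 W were 0.57, 0.68 and -0.22. All pairs were below 0 at P0 and above 0 at 5 W. The shift from P0 was 1.24 at 3 W and 1.67 at 5 W, and it was not called in the main fit (adjusted p = 0.421 and 0.143).

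None of the 9 genes was called for a change of its root difference since P0, at 1 W (0.0632% of all tested probes), 3 W (0.530%) or 5 W (0.948%), and limma gave 3, 1 and 3 of them an unadjusted p below 0.05. With the replicate number as a block, which uses the pairing of AN and EN, Gjc3 passed both thresholds at 3 W (adjusted p = 0.0305) and at 5 W (0.00752). Over 23 alternatives the shift at 5 W ran from 1.29 to 2.02 and its adjusted p from 0.00752 to 0.42, and it was called in 3 of them. The shift at 3 W ran from 0.94 to 1.60 (0.0305 to 0.692) and was called in 1. The other Gjc3 probe, at chr5:138398873-138398932 (mm9), gave 1.43 at 3 W and 1.41 at 5 W in the blocked fit (adjusted p = 0.00968 and 0.00721). Its root difference at P0, -1.04, was called in that fit (0.00621), and that at 5 W, 0.37, was not (0.103). The brighter probe gave 0.77 at 5 W in that fit (0.0157), under the fold threshold. Of 7 genes of immature and non-myelinating Schwann cells, 2 were called for the same change of the root difference at 5 W, Ncam1 (1.48) and Sox2 (1.19). At 5 W itself 6 of the 7 were called higher in AN (3.34% of all tested probes in either direction). Among them were Pou3f1 (1.59), Ncam1 (2.12), Gfap (2.39), which astrocytes also make, and L1cam (1.69). The mean of the 7 genes was 11.20 to 11.50 on the AN arrays and 9.58 to 9.93 on the EN arrays at 5 W. Their part in the Gjc3 result was not tested.

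**Figure D3:**
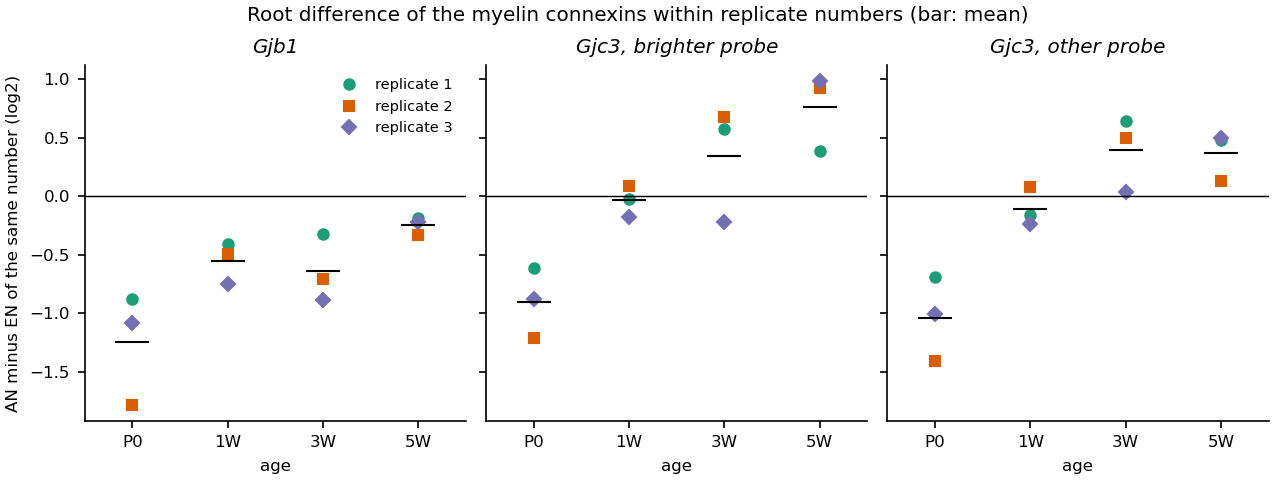
AN minus EN within each replicate number (y axis, log2) by age for Gjb1 and for both probes of Gjc3, with symbols for replicate numbers and a bar for their mean. Gjb1 pairs are all below 0, whereas both Gjc3 probes move from below 0 at P0 to above 0 at 5 W, where the brighter probe reads 0.39, 0.92 and 0.98.

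Gjb2 and Gjb6 are neighbours on chromosome 14 with Gja3 beside them (RefSeq, GRCm38.p6), and their proteins can form mixed channels, as in the inner ear. At 1 W, Gjb2 (probe at chr14:57717629-57717688, mm9, minus strand) read 12.43, 12.66 and 12.99 in EN and 11.10, 11.55 and 11.76 in AN. Gjb6 (chr14:57742226-57742285, mm9, minus strand) read 13.05, 13.20 and 13.45 in EN and 11.72, 12.09 and 12.37 in AN. For both genes, every EN array was above every AN array at this age, and EN at 1 W was the highest of the 8 groups.

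Both differences were called at 1 W, with Gjb2 2.34-fold (log2 difference -1.23, 95% interval -1.69 to -0.76, adjusted p = 0.00478) and Gjb6 2.25-fold lower in AN (-1.17, -1.66 to -0.69, adjusted p = 0.00712). The other Gjb6 probe read 1.44, 1.45 and 1.02 lower in AN within replicate numbers 1, 2 and 3. Its difference of -1.31 was not called without the pairing (adjusted p = 0.063) and was called with the replicate block (0.00571). At 3 W and 5 W neither gene was called between the roots. On its main probe Gjb6 gave -0.02 (95% interval -0.50 to 0.47) at 3 W and -0.14 at 5 W. The other Gjb6 probe gave 0.08 and -0.47 with the replicate block (adjusted p = 0.816 and 0.117), with every pair below 0 at 5 W. Gjb2 was -0.75 at 3 W (adjusted p = 0.0524) and -0.99 at 5 W (0.0098). The last value is a 1.98-fold difference, just under the threshold of 2, and it was called in 5 of 17 alternatives.

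During development Gjb2 fell in AN at 5 W, from 11.28, 11.73 and 12.07 at P0 to 10.07, 10.32 and 9.82. That is a 3.08-fold fall (log2 difference -1.62, adjusted p = 6.12e-06), with -1.58 within the shared slide. In EN the value at 5 W was -0.95 (adjusted p = 0.0014), a 1.93-fold difference that missed the fold threshold. AN was below EN in 12 of 12 replicate pairs for Gjb2. Gjb6 had no called change since P0, its nearest being 0.83 in EN at 1 W (1.78-fold, adjusted p = 0.0122). Over the 24 arrays, Gjb2 and Gjb6 correlated at r = 0.525.

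Genes of fibroblasts and meninges included some with the same direction as Gjb2. Of 8 such genes, 3 fell in AN at 5 W. Of all tested probes, 27.9% were called in AN and 30.0% in EN at this age, in either direction. The 3 that fell in AN were Slc6a13 (log2 difference -1.69) and Aldh1a2 (-1.91), known from arachnoid fibroblasts, and Foxc1 (-1.32), a meningeal transcription factor. In the same comparison Dcn, the matrix proteoglycan decorin, rose (1.26), and in EN at 5 W 2 of the 8 rose, Dcn and Lum, and 2 fell, Slc6a13 and Aldh1a2. None of the 8 was called between the roots at any age, and their mean signal at 1 W was 12.69 to 13.28 on the AN arrays and 13.22 to 13.76 on the EN arrays. Of 7 astrocyte genes, 3, 2 and 5 were called higher in AN at 1 W, 3 W and 5 W, opposite in sign to Gjb2. Between the roots, 2.80%, 3.13% and 3.34% of all tested probes were called in either direction at these ages. Among the astrocyte genes, Fgfr3 was 1.29, 1.23 and 1.83 log2 units higher. Without AN replicate 3 at 3 W the Fgfr3 call at that age was lost (1.22, adjusted p = 0.113). The mean of the 7 at 1 W was 10.09 to 10.54 in AN and 8.75 to 9.79 in EN. The study's protocol peeled off the arachnoid before the roots were taken, and the part of meningeal or astrocytic cells in these connexin values was not tested. The genes most like Gjb2 over the 24 arrays were Crocc2 (r = 0.926), Ranbp3l (0.907) and Angptl1 (0.902), and those most like Gjb6 were Hcar1 (0.767), Krt42 (0.764) and Krt19 (0.762).

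Gja1, the most widely expressed connexin gene in fibroblasts, astrocytes and smooth muscle, was read at chr10:56109814-56109873 (mm9, plus strand). EN read 9.29, 9.26 and 9.03 at P0 and 6.96, 7.65 and 8.45 at 5 W. AN read 9.03, 9.50 and 9.33 at P0 and 7.68, 8.48 and 8.53 at 5 W. The arrays at 5 W lay below those at P0 in both roots, with replicate 1 the lowest in each.

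At 5 W, Gja1 fell 2.84-fold in EN (log2 difference -1.50, adjusted p = 0.000688) and 2.08-fold in AN (-1.06, adjusted p = 0.0106). Within the shared slide the values were -1.49 and -0.94. The AN call did not hold without replicate 1 at 5 W (-0.79, adjusted p = 0.0686) or without AN replicate 2 at P0 (-0.95, adjusted p = 0.0418). No root difference of Gja1 was called at any age.

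Gja1 had 8 probes, and they disagreed. Of the other 3 tested probes, one was called in EN at 5 W (log2 difference -1.35), and the others gave -0.67 and 0.05. In AN the same 3 gave -0.58, -0.30 and 0.14, with no call. Averaging the 4 tested probes gave -0.87 in EN and -0.45 in AN, under the fold threshold in both.

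The 4 remaining Gja1 probes and the dimmest tested one lie towards the transcript's start, and 4 of these 5 are annotated across splice junctions. These come as 2 pairs that share the downstream exon and differ upstream of it. Below, 29 or 30 bases around each junction are printed from the probe sequences, with the stretch shared within a pair in capitals.
Gja1 pair A, probe 1: cgcttttacgagGAGGTGCCCAGACATGGg
Gja1 pair A, probe 2: acttaggatactGAGGTGCCCAGACATGG
Gja1 pair B, probe 1: aaccttgaacgGATCCTTCTGTTTCAGCGT
Gja1 pair B, probe 2: taggatactGATCCTTCTGTTTCAGCGTGC
In pair A, probe 1 was above background on 13 of 24 arrays and probe 2 on 1. In pair B, the probes were above background on 1 and 0 arrays. Probe 1 of pair A is the dimmest tested probe, the one that gave 0.05 in EN and 0.14 in AN at 5 W. The other 3 were not tested, and no change is given for them.

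Gja4, the connexin gene of arterial endothelium, rose in both roots. Its probe lies at chr4:126988848-126988907 (mm9, minus strand). At P0, EN read 9.20, 9.30 and 7.98 and AN 8.84, 8.93 and 8.48. At 1 W, EN read 10.83, 10.93 and 10.53 and AN 9.91, 10.15 and 9.77. No array at 1 W overlapped those at P0. At 5 W, EN read 10.75, 9.89 and 10.74 and AN 10.55, 9.58 and 10.46, with replicate 2 the lowest in both roots.

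The EN differences from P0, in order of age, were 1.94 (3.83-fold, adjusted p = 0.000185), 1.76 (0.000111) and 1.63 (0.000217). In AN they were 1.19 (2.28-fold, adjusted p = 0.0096), 1.12 (0.00552) and 1.45 (0.000707). Within shared slides, EN gave 1.63 and 1.89 at 1 W and 1.25 at 5 W, and AN gave 1.07, 1.06 and 0.88. With the slide as a block, the AN calls at 1 W (0.97) and 3 W (0.50, adjusted p = 0.311) were lost, and so were they without AN replicate 3 at P0 (1.06 and 0.99). Gja4 was lower in AN in 11 of 12 replicate pairs, and the differences of -0.82 at 1 W and -0.72 at 3 W were not called (adjusted p = 0.191 and 0.199).

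Gja5, the other arterial connexin gene, was dimmer and gave 1 call. Its main probe spans chr3:96841677-96854553 (mm9, plus strand), with an intron between. In EN the arrays read 6.21, 6.28 and 6.14 at P0 and 7.53, 6.55 and 7.60 at 5 W, a 2.03-fold rise (log2 difference 1.02, adjusted p = 0.0147). AN replicate 2 at 5 W, at 6.00, lay at the P0 level of 6.00 to 6.28, while the other AN arrays read 7.08 and 7.48. In both roots, replicate 2 at 5 W was the lowest of the age, as for Gja4. The EN rise was 0.34 within the shared slide and 0.41 (adjusted p = 0.167) with the slide as a block. It was also lost without EN replicate 3 at P0 (0.98), and without EN replicate 1 (0.87) or 3 (0.83) at 5 W. The other probes of the gene gave no call in EN at 5 W.

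Of 6 arterial endothelial genes, 2, 3 and 3 rose in EN at 1 W, 3 W and 5 W, and 0, 3 and 3 in AN. Of all tested probes, 12.0%, 30.6% and 30.0% were called in EN and 8.59%, 27.9% and 27.9% in AN, in either direction. One of the 6, Efnb2, fell in AN at 5 W (-1.48). Those that rose included Sema3g, 2.92 in EN and 1.87 in AN at 5 W, and Gkn3, 3.82 and 3.43. The mean of the 6 was 9.16 to 9.70 on the EN arrays at P0 and 10.71 to 10.98 at 5 W. Of 7 general endothelial genes, 1 was called higher and 1 lower in EN at 5 W, where Flt1 was 1.53 and Cdh5 -1.07. The part of arterial cells in the Gja4 result was not tested. Pik3r6 (r = 0.949), Dnaaf3 (0.947) and 0610007P14Rik (0.941) were most like Gja4 over the 24 arrays, and Gjb1 and Gja4 correlated at 0.832.

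Gjc1 fell steadily. On the probe at chr11:102661053-102661112 (mm9, minus strand), EN read 11.05, 10.89 and 10.99 at P0, 10.14, 10.41 and 10.60 at 1 W, 9.83, 9.69 and 9.84 at 3 W, and 9.28, 8.98 and 10.01 at 5 W. AN read 11.32, 11.20 and 11.53 at P0, 10.64, 10.61 and 10.75 at 1 W, 10.30, 10.19 and 9.92 at 3 W, and 9.63, 9.45 and 10.18 at 5 W. Replicate 3 was the highest at 5 W in both roots, and the 3 W and 5 W arrays overlapped.

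In EN, Gjc1 was 2.29-fold lower at 3 W (log2 difference -1.19, adjusted p = 0.000139) and 2.94-fold lower at 5 W (-1.55, 6.95e-06). In AN it was 2.32-fold lower at 3 W (-1.21, 0.000127) and 3.02-fold lower at 5 W (-1.59, 5.44e-06). Within the shared slide, the 5 W values were -1.96 and -1.91, and the 4 falls remained called under all alternatives that were run. The differences at 1 W, -0.59 in EN and -0.68 in AN, had an adjusted p below 0.05 (0.0474 and 0.0282) with folds of 1.51 and 1.61. AN was above EN in 12 of 12 replicate pairs, by 0.08 to 0.54 log2 units, but no age was called. Mural cell genes gave no common direction beside it. In EN at 5 W, 4 of 8 were higher and 2 lower (30.0% of all tested probes in either direction), including Tagln at 3.03 and Acta2 at -1.01. Gjc1 ran opposite to Gjb1 over the 24 arrays (r = -0.836).

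**Figure D4:**
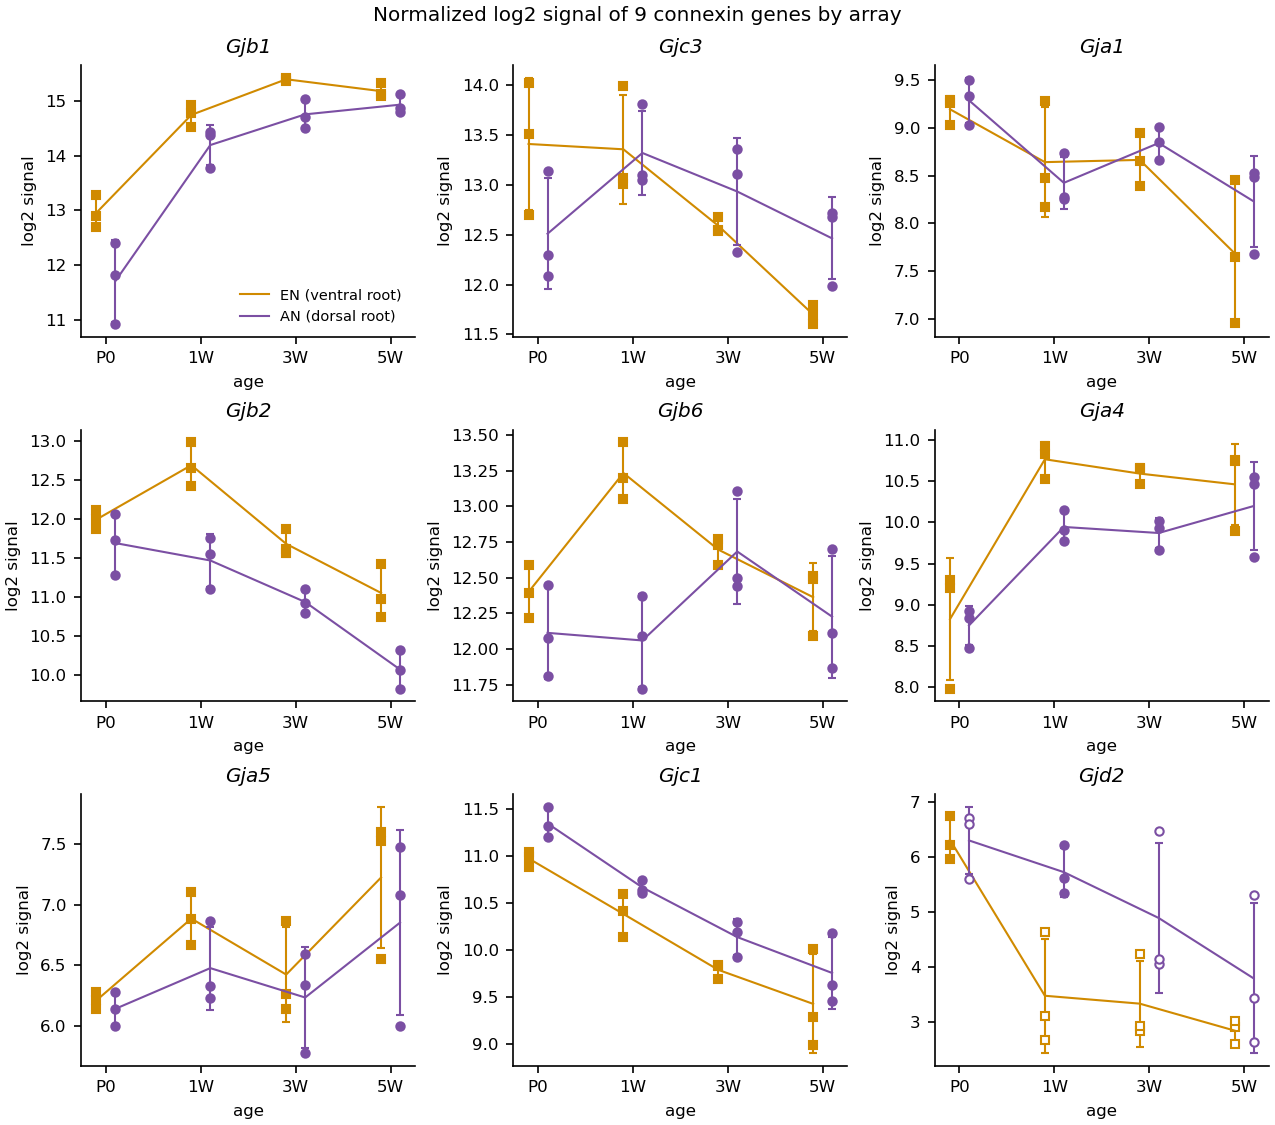
Normalized log2 signal (y axis, own range per gene) of the 9 connexin genes by age in EN (orange squares) and AN (purple circles), 1 symbol per array, with lines through group means and bars of 1 SD (n = 3). Open symbols mark groups in which not all arrays were well above background, which is the case only for Gjd2. Gjb1 and Gja4 lie higher after P0, Gjc1 lower, and Gjb2 and Gjb6 peak in EN at 1 W.

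Gjd2 had its highest means at P0 in both roots and was not above background in EN from 1 W on. On the probe at chr2:113835432-113835491 (mm9, minus strand), EN read 6.23, 6.75 and 5.97 and AN 6.72, 6.60 and 5.60 at P0. At 1 W, AN read 5.62, 5.35 and 6.22, above background on all 3 arrays, whereas EN read 2.68, 3.12 and 4.65, not above background on any. At 3 W, AN read 4.06, 4.16 and 6.47, and at 5 W 3.44, 5.31 and 2.65, with 1 array above background at each age.

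A dim group gives only a lower bound, measured to the lowest signal that was above background on its arrays. The adjusted p values printed with such bounds belong to the fitted differences. Gjd2 was lower in EN by at least 2.70-fold at 1 W (adjusted p = 0.00439), at least 2.71-fold at 3 W (0.00114) and at least 2.41-fold at 5 W (0.000268). Because the gene entered the test through EN at P0 and AN at 1 W, it had to differ from any dim group set against them, and these p values are given as a description. The call at 3 W was lost with the slide as a block (fitted difference -1.64, adjusted p = 0.189), and within shared slides the fitted difference was -3.55 and -1.70 at 1 W and -3.34 at 5 W. In AN, 2 of 3 arrays at P0 and 1 of 3 at 5 W were above background, so a fold measured in this way is not a strict lower bound there. By this measure Gjd2 was 2.94-fold lower at 5 W (fitted difference -2.51, adjusted p = 0.00444), and the fitted difference in the shared slide was -0.79. At 1 W it was at least 1.80-fold higher in AN than in EN (adjusted p = 0.073), and with the replicate block this difference was called (0.0435, with a range of 0.00144 to 0.34 over 16 alternatives).

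Sensory neuron genes moved in the same arrays. All 6 fell in EN at 1 W, 3 W and 5 W and all 6 were called higher in AN at 1 W, with Calca 5.36 and Avil 5.33 log2 units higher. Of all tested probes, 12.0%, 30.6% and 30.0% were called in EN at these ages, and 2.80% between the roots at 1 W. The 3 W array with the high Gjd2 value of 6.47 was AN replicate 3, the array that stood apart, with Avil at 15.20 against 10.42 and 9.78. Without this array, no AN array at 3 W was above background. Measured to the lowest signal above background, Gjd2 was then 3.25-fold lower there than at P0 (fitted difference -2.20, adjusted p = 0.0092). With the array the gene was 2.11-fold lower by this measure and not called (0.0872). Neither fold is a strict lower bound, since not all P0 arrays of AN were above background. The other 3 calls in AN at 3 W were kept without AN replicate 3, at 3.16 for Gjb1, 1.22 for Gja4 and -1.10 for Gjc1. At 5 W the AN arrays with mean sensory neuron signals of 10.60, 9.49 and 6.22 read 3.44, 5.31 and 2.65 for Gjd2. Neuronal transcripts in a root can come from axons or from cell bodies taken along, and their part was not tested. Basp1 (r = 0.960), a protein of growing axons, Camsap3 (0.950) and Meis2 (0.947) were the genes most like Gjd2.

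**Figure D5:**
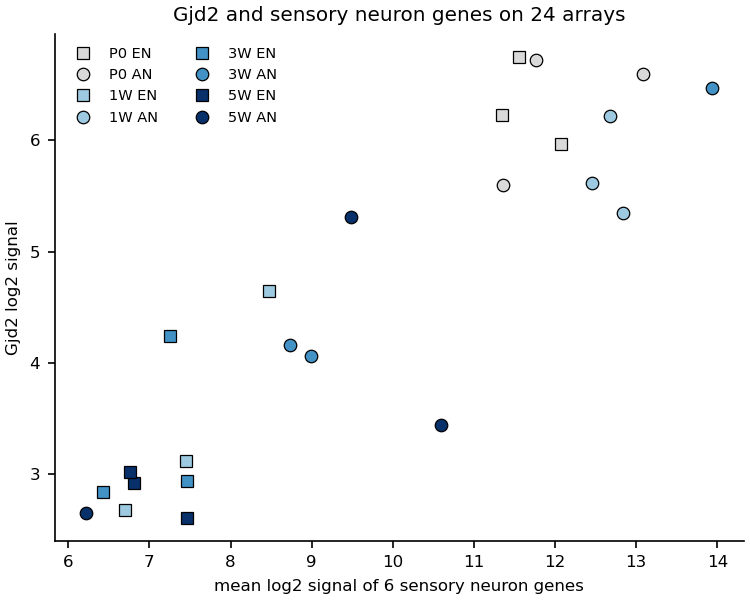
Gjd2 log2 signal (y axis) against the mean log2 signal of 6 sensory neuron genes (x axis) on 24 arrays, with squares for EN, circles for AN and darker fill for older animals. The EN arrays after P0 lie at the lower left, all P0 arrays at the upper right, and the 3 W circle at 13.94 and 6.47 is AN replicate 3.

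Of 11 further connexin genes, 5 passed the filter on dim probes. Of these, Gjb5 was called lower in AN at 5 W (-1.49) and fell in AN at 1 W (-1.14), and Gja3, above background on 1 of 3 AN arrays at each of these ages, was at least 2.63-fold lower than at P0 in AN at 3 W (adjusted p = 0.0186) and at least 2.62-fold lower at 5 W (0.00847).

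Pannexins form channels in single membranes and resemble connexins only in shape. Panx1 fell in EN by 1.01, 2.25 and 2.86 log2 units at the 3 ages, and in AN by 2.26 at 5 W, and it was called higher in AN at 3 W (1.37). Without AN replicate 3 at 3 W, left out after the data were seen, that call was lost (0.77), and Panx1 was then called lower than at P0 in AN at 3 W as well (-1.50, adjusted p = 5.7e-06). Panx2, a neuronal pannexin, was at least 4.63-fold higher in AN than in EN at 1 W (adjusted p = 0.00381) and at least 2.25-fold higher at 5 W (0.021). It passed the filter on dim probes only through AN at 1 W, 3 W and 5 W. It therefore had to differ from a dim EN group, and these p values are given as a description. Panx3 was not above background on any array after P0.

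Of 11 genes for proteins that bind or phosphorylate connexins, 2, 4 and 3 were called in EN at 1 W, 3 W and 5 W (12.0%, 30.6% and 30.0% of all tested probes). In AN, 3 were called at each age (8.59%, 27.9% and 27.9%), so that the share at 3 W and 5 W was near that of all probes. All but the cadherin gene Cdh2, which fell in EN at 3 W (-1.23), rose. They included Prkca, the kinase PKC alpha, with 2.45 and 3.09 in EN at 3 W and 5 W and 1.01, 1.65 and 2.53 in AN. Ccn3, a ligand that binds Cx43, rose by 1.54 in EN at 1 W and by 2.27, 1.87 and 1.59 in AN. Between the roots, Cdh2 was called higher in AN at 3 W (1.41) and 5 W (1.09), and Cav1, the caveolin of endothelium and other cells, lower in AN at 3 W (-1.24). Tjp1, which encodes the main connexin scaffold ZO-1, had no call.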

How the data were processed

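The authors deposited Feature Extraction 10.7.1.1 files of 24 Cy3 arrays (8 × 60K), which give the fluorescence intensity per spot, and a log2 table, quantile normalized in GeneSpring according to their methods. The background-subtracted intensity was used here. Outlier spots were dropped, spots averaged per probe and log2 values quantile normalized, and these correlated with the deposited log2 columns at r of 0.999984 or more. The test covered 36398 of 56605 probes (64.3%), those that in 1 or more groups stood well above background on each of the 3 arrays. Groups came from the labels' root and stage. All group means were fitted with limma 3.58.1 in R 4.3.3 (16 residual degrees of freedom, 18.38 after moderation). The study's methods give p and fold thresholds without saying whether p was adjusted. The fit was tested on simulated data. Median array signals were 45.4 to 191 over local backgrounds of 23 to 46, no gene spot was saturated, and the number of arrays limits the precision.

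Same-numbered AN and EN arrays shared a slide, and their deviations from group means correlated in all 12 pairs (r of 0.107 to 0.665). The numbers were therefore used as pairs. No such correlation was computed between arrays of unlike number, so shared animals and a shared slide were not told apart. At 3 W all arrays lay on 1 slide, so that the numbers did not differ in slide, and r was 0.188, 0.107 and 0.215. The connexin genes and marker lists were chosen with earlier results of these data known. Besides the 9 connexins, called list genes were named, at most 4 a list and the brightest first, with further genes named for their background roles, and the 3 genes most correlated with each connexin. Some genes that these rules chose are not reported here. Promoter windows and gene order came from RefSeq (GRCm38.p6), probe positions from the file headers (mm9). A promoter window matched 8 of 9 genes. Python 3.11.15 (numpy 2.4.6, pandas 2.3.3, matplotlib 3.10.9) was used for summaries and figures.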

Additional observations from a re-analysis of the deposited data

Results flagged for a closer look

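The change of the Gjc3 root difference since P0 stood out between the time points. With AN and EN paired by replicate number, AN minus EN at 3 W minus that at P0 was 1.241 log2 units, and at 5 W it was 1.665, and both passed the test in that fit. In addition, each of the 3 pairs was lower in AN at P0 and each was higher in AN at 5 W, and the means of these pair differences were 1.663 apart. This opposition of signs was itself not tested, and the main fit, which does not use the pairing, did not call the shift at 3 W or 5 W. With the slide or the scan batch as a block in limma, the shift at 5 W was called (adjusted p = 0.0179 and 0.0148).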

How the results depend on the processing

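Of 28 called connexin differences, 19 remained called under every alternative run and 9 were lost under at least 1. Among 472 alternative values, 0 turned their sign and 30 were no longer called. All 28 remained called with the deposited log2 table, with array weights and with the replicate block. The block added Gjd2 between the roots at 1 W and raised the change of the root difference since P0 from 0 to 1 gene at 3 W and 1 at 5 W (Gjc3), and through the main probes it changed no other call. The slide block and the scan block also called 1 gene at 5 W (Gjc3). Both added Gjd2 between the roots at 1 W, Gjc3 in AN at 1 W against P0 (1.04 and 1.06) and Gja1 at 3 W against P0 in EN (-1.19 and -1.25, against -0.53) and in AN (-1.10 and -1.16, against -0.45), and the slide block added Gja5 in AN at 3 W (-1.01, against 0.10). No slide held both P0 and 3 W. For AN against EN at P0, 0 genes were called with 75th percentile scaling, without the filter on dim probes or with the 2 compared groups alone, and 0 to 1 when an array was left out in turn. For AN against EN at 5 W, 1 gene (Gjb2) was called with 75th percentile scaling, array weights or no fold threshold, and 0 to 1 when an array was left out. Without the fold threshold, 6 genes were called in EN at 1 W against P0 and 5 in AN at 3 W. With unadjusted p, 1 was called between the roots at 3 W (Gjd2) and 1 for the change of the root difference at 1 W (Gjd2), 3 W and 5 W (Gjc3). In AN at 1 W against P0, 1 to 2 were called when an array was left out. Normexp background correction took Gjd2 at 1 W in EN (-0.91) and at 5 W in AN (-0.84), Gja1 at 5 W in AN (-0.94) and Gja5 at 5 W in EN (0.61) under the fold threshold. The causes were not tested. Gjd2 is limited by its signal, since the lowest log2 signal above background was 3.71 to 5.87 over the arrays.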
